A study of Homo sapiens with 3 samples.

Results

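IFIT2 (interferon-induced protein with tetratricopeptide repeats 2, ENSG00000119922) was 1 of 5932 genes listed in the deposited table, and it was found by its gene symbol. It was listed in 3 of 14338 entries, an entry being a called region given under a gene name with no coordinates. A region can be listed under several genes, and with such repeats merged there were 12720 regions. It was chosen by its control level and its difference between the libraries, both known from an earlier look at the table, so these values are given as a description. IFIT3 and IFIT1, the other listed symbols that start with IFIT, served as comparison.

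The series holds 3 libraries from 95D, an established human lung cancer line labelled wild type. A library each was made from cells in control conditions, in glucose-deficient medium and in glutamine-deficient medium, all for 48 h. Serum stood at 10% for all 3, and that of the deprived media was dialyzed. Per the labels' protocols, RNA was captured from lysate with the long non-coding RNA DAMER, biotinylated as bait, but the titles call the libraries RNA-Seq only. What the control library stands for therefore cannot be settled from the labels. Each condition had 1 library, so differences below carry counting error only and were not tested.

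IFIT proteins are made at low levels in resting cells and in large amounts after viral RNA or type I interferon is sensed. Their genes are switched on by IRF3 directly or by signals from the interferon receptors, through the interferon-stimulated response element in their promoters. IFIT1 binds RNA ends that lack the methylation of host caps, IFIT3 stabilises IFIT1, and IFIT2 binds AU-rich RNA, joins IFIT1 and IFIT3 in a complex and promotes apoptosis when overexpressed.

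The paralogs are alike in part, and whether reads could be confused depends on how alike, so their most alike coding stretch is shown first. Coding sequences from GENCODE release 29 (GRCh38) were compared in ungapped windows of 150 nt, the read length in the labels. The best window lay in the coding part of the last exon of both genes, at chr10:89306155-89306304 for IFIT2 and chr10:89338854-89339003 for IFIT3, plus strand. Capitals mark the bases that differ.
IFIT2: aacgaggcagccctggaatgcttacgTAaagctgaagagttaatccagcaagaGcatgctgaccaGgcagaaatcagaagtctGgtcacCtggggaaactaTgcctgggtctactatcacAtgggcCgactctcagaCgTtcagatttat
IFIT3: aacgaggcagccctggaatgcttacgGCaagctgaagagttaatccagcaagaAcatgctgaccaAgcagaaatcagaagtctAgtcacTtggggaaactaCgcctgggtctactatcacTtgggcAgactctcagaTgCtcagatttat

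These stretches differed at 11 of 150 bases, and the longest identical run between the coding sequences of IFIT2 (1416 nt) and IFIT3 (1470 nt) was 26 nt. Against IFIT1 the best window differed at 35 bases and the longest identical run was 15 nt. Against IFIT5 and IFIT1B the best windows differed at 34 and 30 bases. A read of full length from the IFIT2 coding sequence thus differed from the coding sequence of each of these paralogs at 11 or more bases, indels not considered. Untranslated parts of the exons and the pseudogene IFIT6P were not compared. The sources used here do not say how the alignment treated reads with several matches.

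Of the 5 IFIT genes, 4 (IFIT1, IFIT1B, IFIT3 and IFIT5) matched RefSeq promoters, which cover 250 bases before to 50 after a start (GRCh38.p14). They were searched on both strands for GAAANNGAAA, the core of the interferon-stimulated response element. It was present in both IFIT3 promoters and in those of IFIT1 and IFIT5, and not in that of IFIT1B. Of all 35116 promoters 3.57% held it. The element is shown because the family is named for its response to interferon, and the capitals mark the core as read on the opposite strand (TTTCNNTTTC).
IFIT3, 122 bases before a start, chr10:89327870-89327889: attagTTTCacTTTCcagtt
IFIT1, 116 bases before its start, chr10:89392502-89392521: tttagTTTCacTTTCccctt
A match of letters is a description, not a measured binding site.

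IFIT2 lies on chromosome 10 from 89283694 to 89309276, plus strand (GRCh38, GENCODE release 29), and is protein-coding. Its 3 annotated transcripts are IFIT2-201 with 2 exons (3489 nt), IFIT2-202 with 3 exons (3038 nt) and IFIT2-203 with 5 exons (3703 nt), and the union of their exons is 4101 nt. The start of IFIT2-203 lies upstream of the other starts, which are at 89301955 and 89302046. The gene lies inside the annotated span of LIPA, the lysosomal acid lipase gene on the minus strand (89213569 to 89414557). The sources used here do not say whether counting used strand, so reads of IFIT2 and LIPA cannot be told apart by strand. LIPA had 1 entry of its own, at 4.36 RPM (reads mapped to the region, scaled to a common library size) in the control library, and none of its values equals an IFIT2 entry. AL353751.1, a non-coding gene that overlaps the upstream exons of IFIT2, was not in the list.

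**Figure D1:**
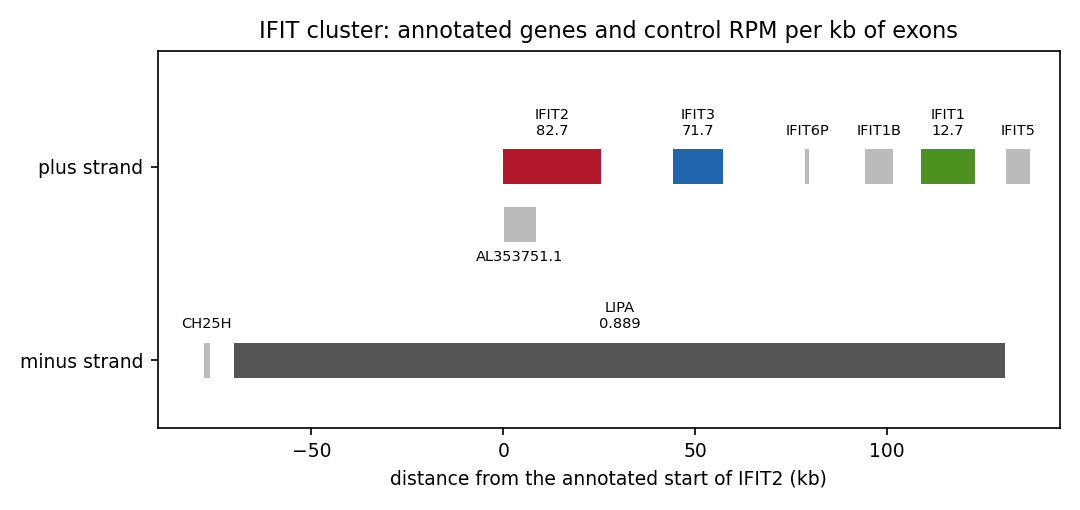
Annotated genes around IFIT2 by strand (y axis) and distance from its annotated start in kb (x axis); bars are whole gene spans, coloured or dark where the gene was listed, and numbers give control RPM per kb of exons. IFIT2 stood at 82.7, IFIT3 at 71.7 and IFIT1 at 12.7 RPM per kb, while LIPA, which spans all 3 on the other strand, stood at 0.889.

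Values moved in fixed steps with an added offset of 0.5 fragment per entry, so fragments (sequenced read pairs) could be recovered. The control library totalled 3781862 fragments, that of glucose deficiency 18775814 and that of glutamine deficiency 18301611. A count of 0 allows up to 0.793, 0.160 and 0.164 RPM in turn, taken as 3 fragments. ATF4 and its pseudogenes held nearly all reads of both deprived libraries, and only 0.0689% and 0.0790% of their fragments lay outside that family. Intervals are exact 95% intervals of counting error in fragments only. PCR copies are not independent molecules, so these intervals may be too narrow. In these bulk libraries, fewer cells with a transcript, less of it per cell, a difference in capture and displacement by ATF4 reads cannot be told apart.

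The 3 entries of IFIT2 were not equal in the control library. The lowest stood at 50.4 RPM (190 fragments), the middle one at 144.2 RPM (545 fragments) and the highest at 144.5 RPM (546 fragments). The lowest held 14.8% of the gene's fragments, and the highest was 2.87 times the lowest (2.43 to 3.41). The other 2 entries differed by 1 fragment. Among 813 pairs of neighbouring values within a gene, with at least 100 fragments in the higher one, 7 pairs (0.861%) differed by 1 fragment or less, and that of IFIT2 had the most fragments. The next were NEAT1, a long non-coding RNA of nuclear paraspeckles, at 250 and 250, and FTH1, the ferritin heavy chain, at 232 and 233. Without coordinates it cannot be seen whether the near-equal IFIT2 entries overlap and count the same fragments. The sum over 3 entries was 339.1 RPM (1281 fragments), and 194.9 RPM (736 fragments) with the near-equal pair counted once.

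In both deprived libraries every IFIT2 entry had 0 fragments, as had 90.9% of tested genes without glucose and 99.2% without glutamine. The deposited values there, 0.0266 RPM per entry without glucose and 0.0273 RPM per entry without glutamine, are the offset alone. The summed 0.0799 and 0.0820 RPM are thus no measure of transcript, and the order between the deprived libraries cannot be read from them. A count of 0 limits IFIT2 to 0.196 RPM (glucose) and 0.202 RPM (glutamine) at the upper end of the exact Poisson interval.

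**Figure D2:**
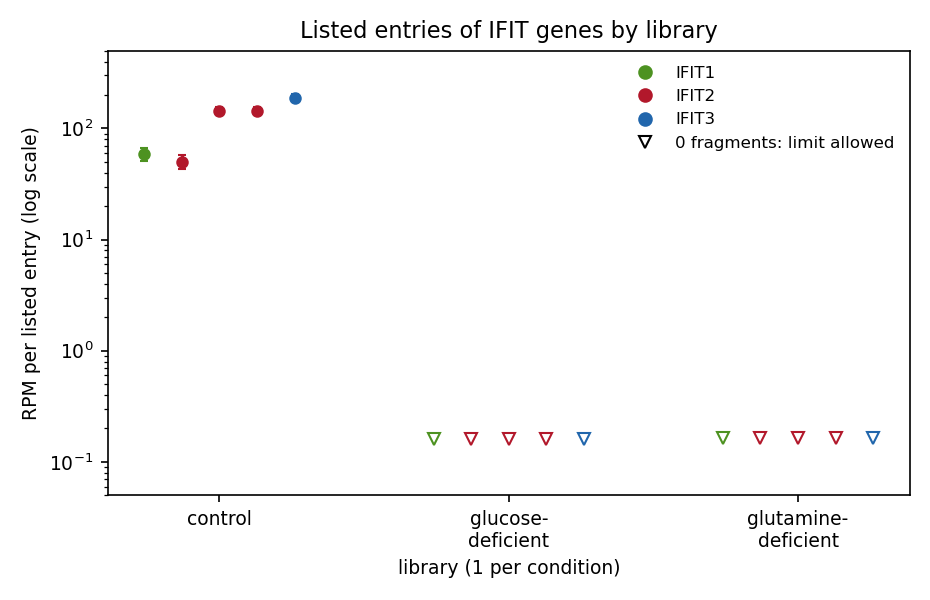
RPM of each listed entry of IFIT1, IFIT2 and IFIT3 (log y axis) in the 3 libraries (x axis); filled points are fragments with the offset taken off and exact Poisson 95% intervals, and open triangles mark 0 fragments at the limit of 3 fragments. All 5 entries lie between 50 and 190 RPM in the control library and at 0 fragments in both deprived libraries.

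IFIT2 was among the more abundant listed genes of the control library, at 0.0339% of its fragments (0.0320 to 0.0358). By summed RPM it ranked 54 of 5932 listed genes, and ranks 52 to 56 fell within its counting interval. A region listed under several genes counts for each of them in these ranks, and some genes above IFIT2 share a region. Per length, it stood at 82.7 RPM per kb of annotated exons (78.1 to 87.2) and ranked 234 of the 5796 genes with an annotated length. That is 19.3 times the median of 4.29 RPM per kb. With the near-equal pair counted once it stood at 47.5 RPM per kb, or 11.1 times the median. With the highest entry alone it stood at 35.2 RPM per kb, or 8.21 times the same median, which sums all entries of each gene. By the highest entry of every gene per length, it ranked 421. Listed regions held only 22.7% of control fragments, so reads in regions outside the list are missing from all these levels.

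Within the family IFIT1 stood lowest per length. IFIT3 stood at 189.2 RPM in 1 entry (715 fragments), or 71.7 RPM per kb (66.5 to 77.1). IFIT2 was 1.15 times IFIT3 per length (1.05 to 1.27), but 0.663 times with the near-equal pair counted once and 0.492 times with its highest entry alone, so the order of these 2 depends on which entries are summed. IFIT1 stood at 58.6 RPM in 1 entry (221 fragments), or 12.7 RPM per kb (11.1 to 14.5). IFIT2 was 6.51 times IFIT1 per length (5.65 to 7.56), 3.74 times with the pair counted once and 2.78 times with the highest entry alone. IFIT3 and IFIT1 also had 0 fragments in both deprived libraries. IFIT5 and IFIT1B were not in the list.

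Other interferon-stimulated genes were set beside IFIT2 in the control library, from a list of 116 genes of which 22 were in the deposited table. Only CCL5, a chemokine that attracts T cells, stood above IFIT2, at 138.7 RPM per kb (128.9 to 148.4). The other 21 stood below, and the list's median was 3.36 RPM per kb, so IFIT2 was 24.6 times that median. The ratio was 14.1 with the near-equal IFIT2 entries counted once and 10.5 with the highest IFIT2 entry alone, against the same median of summed entries. ISG15, a ubiquitin-like protein joined to other proteins, stood at 18.1 RPM per kb (13.8 to 23.0). The antigen-presenting genes HLA-C and HLA-B stood at 17.7 and 8.97 RPM per kb. RIGI, a sensor of viral RNA ends, stood at 13.6 RPM per kb and ADAR, an RNA-editing deaminase, at 12.9, next to IFIT1 and within overlapping intervals of it. Such orders depend on the length used. Per kb of the longest transcript, HLA-C (23.6) stood above ISG15 (21.7), and ADAR (17.5) above IFIT1 (12.7). OASL and HERC5, an activator of RIGI signalling and the ligase that attaches ISG15, stood at 3.76 and 2.66 RPM per kb. IFIH1, another RNA sensor, stood at 0.906 RPM per kb. MX1, OAS1, IFI6, IFITM3, STAT2 and IRF9, all on the same list of 116, were not in the table, and their levels were not analysed here.

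**Figure D3:**
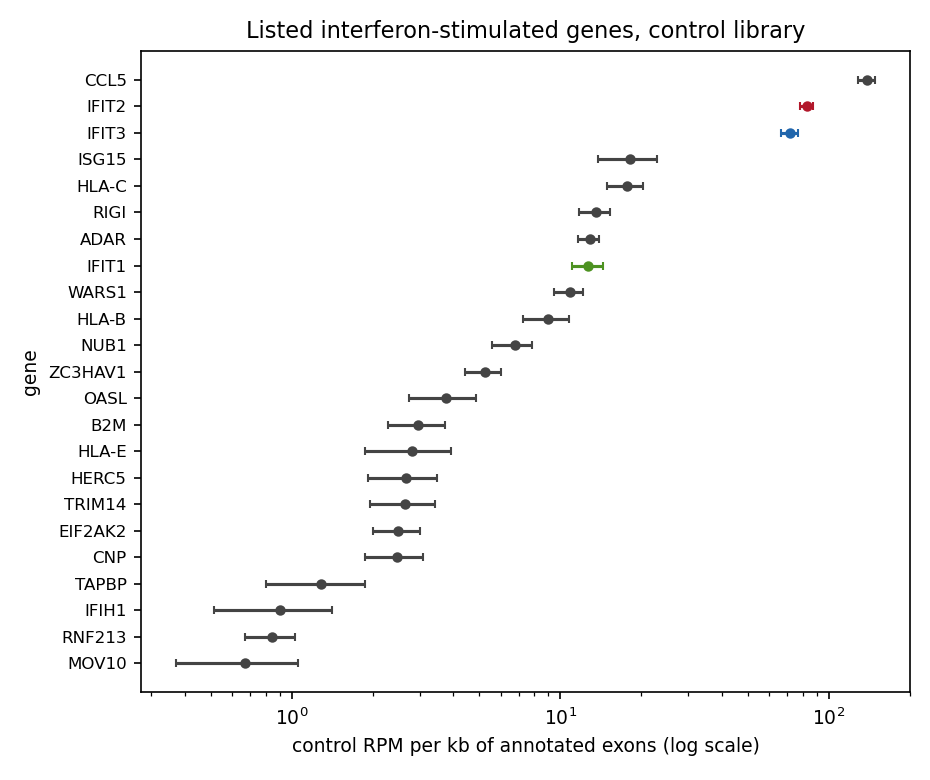
Control RPM per kb of annotated exons (log x axis) for 23 of the 25 listed IFIT and other interferon-stimulated genes (y axis), with exact Poisson 95% intervals. IFIT2 (82.7) and IFIT3 (71.7) lie below CCL5 (138.7) and above the other 20 genes shown, of which ISG15 (18.1) is the highest.

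Genes that act upstream of IFIT2 were listed in part. Of 25 genes for interferon production, 6 were listed. Beside RIGI and IFIH1 these were the mitochondrial adaptor MAVS (1.34 RPM per kb), the factor IRF3 (2.89), the RNA-sensing helicase-like protein ZNFX1 (1.02) and the kinase adaptor TANK (1.18). Of 24 receptor and signalling genes 7 were listed, among them the receptor chains IFNAR1 (0.650 RPM per kb) and IFNGR1 (1.33) and the kinase JAK1 (1.80). None of the 22 interferon genes, IFNB1 included, was in the table. Of 5 cap-forming genes, whose products mark host mRNA as self against IFIT1, RNMT (2.82 RPM per kb), RNGTT (1.29) and CMTR1 (1.18) were listed. Each of the genes named here had 0 fragments in both deprived libraries, which is close to the 90.9% and 99.2% of all tested genes.

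The glucose-deficient library was set beside the control library. Whether a difference lies in the cells or in how the libraries were captured and made cannot be told apart. On log2(RPM + 1), IFIT2 was lower by 8.30, and with 3 fragments in place of its 0 it was 2120-fold lower. Its counting interval, with counting error in both libraries, gave 1722-fold or more. With the highest entry alone IFIT2 was 904-fold lower at 3 fragments, and 732-fold or more by the interval. This difference is shared by almost every listed gene: 99.9% of 5931 tested genes were lower by 2-fold or more and 0.118% higher, with a median of −3.92. A gene was tested if it reached 1 RPM in 1 of the compared libraries. A gene with 0 fragments, as 90.9% of tested genes had, passes only through its control level. On this scale it is then called lower almost of necessity, so these calls say nothing particular about IFIT2 or the lists. All 22 listed interferon-stimulated genes and all 3 IFIT genes were lower, but 21 of the 22 came out higher with library totals that leave out ATF4, where values at 0 fragments are the rescaled offset. The value of IFIT2 on that scale (−1.54) is set by its control level and the offset of its 3 entries, and shows no direction. The median was −4.20 over the 22 genes and −7.53 over the IFIT genes, where the log2 ratio was −7.53 for IFIT3 and −5.86 for IFIT1. Of the 22, 21 had 0 fragments, against 90.9% of all tested genes. EIF2AK2, the RNA-activated kinase PKR that blocks translation, had 1 fragment against 100.

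In glutamine-deficient cells the log2 ratio of IFIT2 was −8.30 again, and 3 fragments in place of its 0 gave 2066-fold lower. Its counting interval gave 1678-fold or more. With the highest entry alone IFIT2 was 881-fold lower at 3 fragments, and 714-fold or more by the interval. Of 5928 tested genes 99.9% were lower by 2-fold or more and 0.0675% higher, with a median of −3.93, and the same control library served both comparisons. All 22 interferon-stimulated genes were lower (median −4.20), but 18 came out higher with totals that leave out ATF4. There too the value of IFIT2 (−1.70) rests on the rescaled offset and shows no direction. All 22 had 0 fragments, against 99.2% of tested genes. Every tested gene stood at 2.64 RPM or more in the control library, so 0 fragments alone made a gene count as lower. IFIT3 and IFIT1 were 1153-fold and 356-fold lower at 3 fragments, and 936-fold and 288-fold or more by their counting intervals.

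Because ATF4 filled both deprived libraries, fragments there were also counted per 1000 control fragments of the same set. These counts were not scaled to library totals, so they serve only to compare sets within a library. The glucose-deficient library kept 3.42 fragments outside the ATF4 family per 1000 such control fragments, and 1.40 (1.32 to 1.49) in listed regions outside that family and mitochondria. For IFIT2 it kept 0 per 1000, with an upper limit of 2.88, so at this depth IFIT2 could not be told apart from the listed regions. The 3 IFIT genes together kept 0 of 2217 fragments, with an upper limit of 1.67, which also includes 1.40. At the share outside the ATF4 family, 4.38 IFIT2 fragments would have been counted where 0 were. The ratio on that scale had an upper limit of 0.843 for the sum of 3 entries, but 1.47 with the near-equal pair counted once and 1.98 for the highest entry. Listed regions as a whole also kept less than that share, so the limit does not set IFIT2 apart from them.

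In the glutamine-deficient library the share kept was 3.82 per 1000 outside the ATF4 family, but 0.0801 (0.0612 to 0.103) in listed regions outside that family and mitochondria. The upper limit of 2.88 for IFIT2 is far above that of the listed regions. At the share outside the ATF4 family, 4.90 IFIT2 fragments would have been counted, and the upper limit of the ratio was 0.755. It was 1.31 with the near-equal pair counted once and 1.77 for the highest entry.

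**Figure D4:**
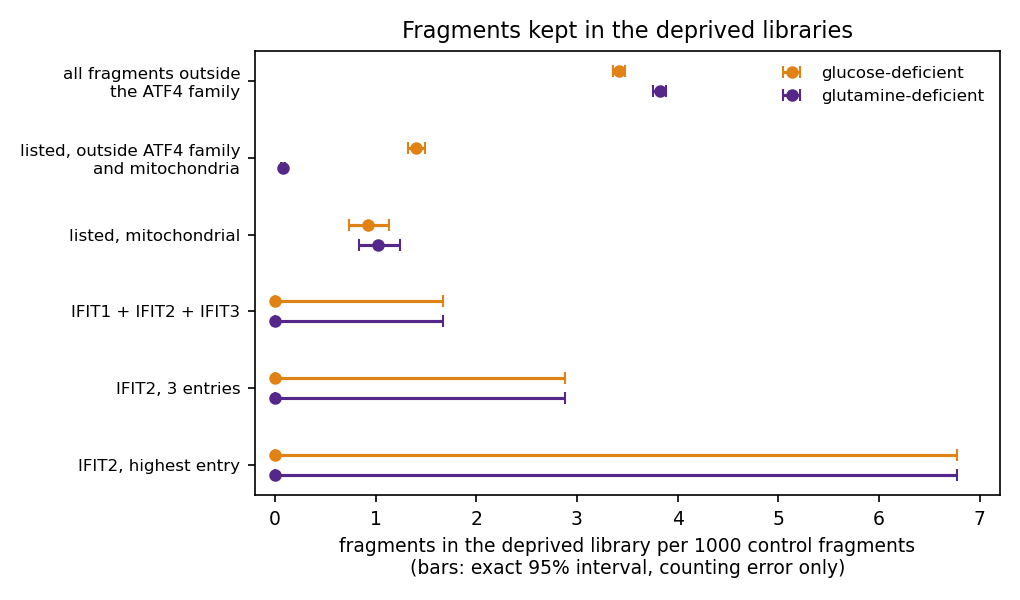
Fragments in each deprived library per 1000 control fragments (x axis) for sets of regions (y axis); points are the values and bars exact 95% intervals of counting error. IFIT2 lies at 0 in both libraries with limits of 2.88, which include the 1.40 and 0.0801 of listed regions outside the ATF4 family and mitochondria.

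Many genes about as abundant as IFIT2 also had 0 fragments in the glucose-deficient library. The counts of genes below include genes that share a region, so they are not all separate. Of 133 genes outside the ATF4 family within 2-fold of its control count (640.5 to 2562 fragments), 53 (39.8%) had 0 there, and the median was 1 fragment. In the glutamine-deficient library 131 of the 133 (98.5%) had 0. Among all 70 genes outside the ATF4 family with 1000 or more control fragments, which include far more abundant ones, 11 (15.7%) had 0 fragments without glucose, IFIT2 among them, and the median was 2. The others of the 11 include the mitochondrial ribosomal RNA MT-RNR2 (3129.5 control fragments, since values moved in steps of 0.5), the ribosomal protein gene RPL8 (1378.5) and the glycosyltransferase gene OGT (1251). They also include PPP1R15A, which directs a phosphatase to restart translation after stress (1116.5), and the amino acid transporter gene SLC38A1 (1045). These and the near-equal genes NEAT1 and FTH1 were chosen after their values were seen. With only 1 or 2 fragments at stake per gene, 0 and 2 do not differ beyond counting error. Without glutamine 60 of the 70 genes (85.7%) had 0 fragments.

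**Figure D5:**
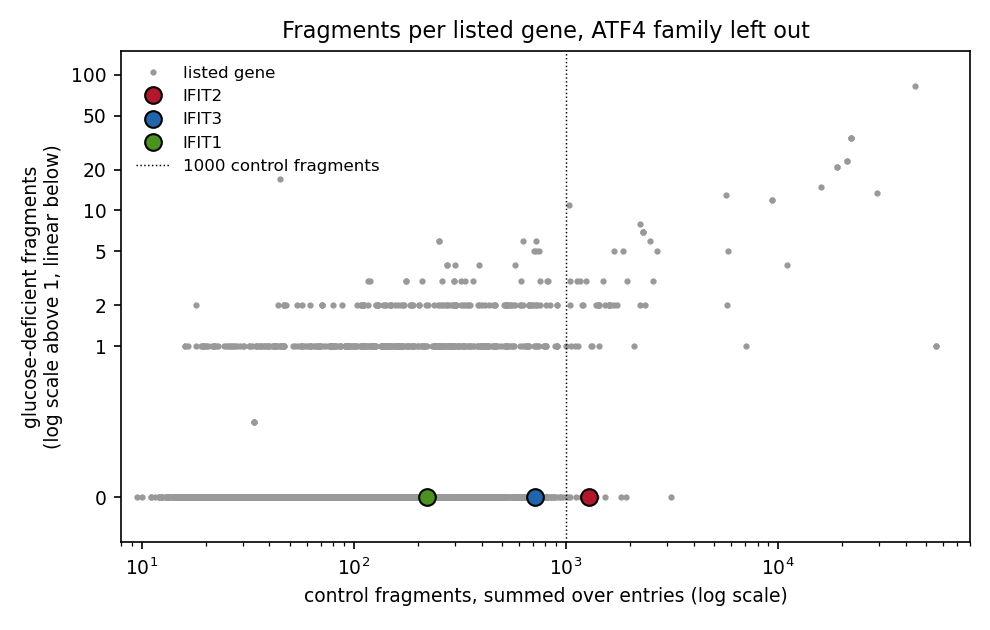
Fragments per listed gene in the glucose-deficient library (y axis, logarithmic above 1 and linear below) against the control library (log x axis), ATF4 family left out. IFIT2 lies at 0 with 1281 control fragments, right of the dotted line at 1000 fragments, where 11 of 70 genes had 0.

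The genes most like IFIT2 over the 3 libraries were found by Euclidean distance on log2(RPM + 1) among 5928 genes. The nearest was RPL8, a protein of the large ribosomal subunit, at a distance of 0.117 (control level 365.0 RPM, no fragment in either deprived library). NUDCD3, a co-chaperone gene, followed at 0.140 (319.3 RPM, and 2 fragments without glucose), then RPL32P18, a ribosomal protein pseudogene, at 0.153 (313.2 RPM, likewise 2 fragments). ENSG00000278996, listed without a symbol, stood at 0.163 and SNHG3, a small nucleolar RNA host gene, at 0.166. With the deprived values near the offset, this distance follows the control level almost alone. A region listed under several genes counts for each of them here too, so these genes need not be separate.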

How the data were processed

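The authors deposited values in RPM, per the file headers, for 3 libraries in 2 blocks of a control and a deprived column. Alignment was with HISAT2 2.0.5 to hg38, per the submitters' processing notes; the sources used here do not give the region calling, annotation or strand setting. One label cites the glucose column for the glutamine-deficient cells; that library was mapped through its own deposited table, which equals the glutamine column. Entries that name no gene (691 in each block, 4.82%) stayed out of gene comparisons. Every gene identifier matched the name table.

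Entries of a gene were summed. A region listed under several genes counted for each gene in ranks and gene counts, and only once in fragments kept and library totals. Fragments were recovered by taking off the offset of 0.5 fragment and rounding to the nearest 0.5; values under 1000 RPM lay within 0.00366 fragment of a step. Whole fragments made up 63.3% of control and over 99.9% of deprived values, most of which were 0, so no count model of differences was fitted. The Poisson and binomial intervals treat the recovered fragments, steps of 0.5 included, as counts. Ratios are log2(RPM + 1), which understates low genes, and a gene was tested at 1 RPM or more in either library. Ratio intervals are exact conditional binomial at 95%. Lengths are unions of GENCODE release 29 exons (5796 genes).

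The gene and lists were chosen with earlier results of these data known. Named genes were IFIT genes, listed neighbours, up to 8 members per list by control level, the 5 genes nearest to IFIT2, and exceptions named as such (some members of the lists are counted but not reported here); further list members were named after their values were seen. Alternatives were other pseudocounts, filters and totals, median-of-ratios scaling, the highest entry and the offset taken off. Intervals used scipy 1.17.1, tables pandas 2.3.3 and numpy 2.4.6, and plots matplotlib 3.10.9, in Python 3.11.15, and the steps were tested on simulated data.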

Additional observations from a re-analysis of the deposited data

How the results depend on the processing

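The log2 ratio of IFIT2, −8.30 in both comparisons, was below 0 under every alternative run, but its size was set by the choices. In the glucose and glutamine comparison in turn it was −10.88 and −10.86 with a pseudocount of 0.1 RPM, −6.08 and −6.08 with 5 RPM, −8.41 and −8.41 with the offset taken off and −7.15 and −7.15 with the highest entry only. With the near-equal entries counted once, an alternative added after the data were seen, it was −7.54 and −7.54. When totals left out the ATF4 family it was −1.54 and −1.70, when they left out mitochondrial genes and the 10 highest genes −1.59 and −1.77, and with median-of-ratios scaling −1.0 and −0.72. Under these 3 scalings the deprived value is the rescaled offset alone, and the median of all tested genes moved to 2.20 and 2.0, 2.16 and 1.93, and 2.74 and 2.98. As most genes had 0 fragments too, these values show no direction for IFIT2.

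The number of genes at least 2-fold lower, 5924 in both comparisons, fell under the same 3 scalings to 99 and 144, 101 and 155, and 44 and 69. The number of interferon-stimulated genes lower, 22 in both, fell to 0 and 1, 0 and 1, and 0 and 0. Most genes at 0 fragments were then placed higher by the offset (21 and 18, 21 and 18, and 21 and 21 of the 22), so these counts show no direction. Under the other alternatives both counts stayed within 1.5 times. The rank of IFIT2 in the control, 54, was 94 by highest entry, 234 per exonic length, 118 with the near-equal entries counted once, 229 per length of the longest transcript and 421 by highest entry per exonic length, the last 3 added after the data were seen. No paired analysis was possible because each group had 1 library, and for the same reason no library could be left out. At 0 fragments the depth gives limits and no level.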

Other observations

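Of 50 genes of the immediate early and stress responses, many with short-lived mRNAs, 22 were listed, and 21 of them stood below the summed level of IFIT2 in the control library. Their median was 8.25 RPM per kb of exons, and IFIT2 was 10.0 times that median. The ratio was 5.76 with the near-equal IFIT2 entries counted once and 4.27 with the highest IFIT2 entry alone, against the same median of summed entries. PPP1R15A stood at 95.6 RPM per kb, above IFIT2, and PMAIP1, the pro-apoptotic gene for NOXA, at 72.1, close to IFIT3. MYC, a growth-promoting transcription factor, stood at 49.9 RPM per kb, JUN, a subunit of AP-1, at 38.2 and ATF3, a stress-induced repressor, at 29.6. With the near-equal pair counted once (47.5 RPM per kb), PMAIP1 and MYC also stood above IFIT2. With its highest entry alone (35.2 RPM per kb), JUN did too, against the summed entries of these genes. By the highest entry of each gene, PPP1R15A (77.8) and PMAIP1 (55.7) stood above IFIT2, and JUN (23.6) and MYC (20.6) below. GADD45A, a growth arrest gene, stood at 25.0 and MCL1, an anti-apoptotic gene, at 13.3 RPM per kb. All 22 were at least 2-fold lower in both deprived libraries, where 99.9% of tested genes were. JUN kept 2 fragments in the glucose-deficient and GADD45A 1 in the glutamine-deficient library, and the other 21 genes of each comparison had 0.

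Markers of other cell types were almost absent from the table. Of 8 leukocyte markers 1 was listed, CSF1R, a macrophage receptor, at 10.3 RPM in the control. None of 6 fibroblast and 5 endothelial markers was listed. Of 6 epithelial markers only KRT8, a keratin, was listed, at 6.48 RPM. The table holds chosen regions only, so a marker outside it has no level here. Among the neighbours of IFIT2 on chromosome 10, KIF20B, a mitotic kinesin gene, stood at 4.11 RPM per kb in 4 entries.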
